A study of Mus musculus with 6 samples.

Results

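Costimulatory and adhesion co-receptors were examined as a set of 8 genes in CD8+ T cells sorted on day 7 of infection: Cd28, Icos, Cd2, Cd226, Cd96, Crtam, Cd7 and Cd37. They were taken by symbol from the 13675 genes of the table, each symbol matched 1 Ensembl gene ID, and all 8 passed the filter on low values. The study asked how loss of CK2α, a catalytic subunit of the serine/threonine kinase CK2, alters CD8+ T cells responding to infection. All donor cells were CD45.2 OT-I cells, which carry a transgenic T cell receptor for an ovalbumin peptide. The KO-labelled cells carried CK2αfl/fl alleles and dLck-Cre, a Cre recombinase driven by the distal Lck promoter, which acts in maturing T cells, and the labels also call them CK2α-/-. The WT-labelled cells carried the same CK2αfl/fl alleles without Cre, so both groups share the loxP sites. The 2 kinds of cells were given to different CD45.1 B6 hosts, which keep their own lymphocytes, and the hosts were infected with Listeria monocytogenes-OVA. RNA of CD45.2 CD8+ cells sorted from the spleen was sequenced from 3 samples per group. The labels do not say whether these came from separate or pooled mice, and the p-values reflect no more than sample-to-sample spread, which could be technical.

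A T cell integrates its antigen receptor signal with signals from co-receptors that bind ligands on other cells. CD28, the main costimulatory receptor of T cells, binds CD80 and CD86, and ICOS, induced on activation, binds ICOSL and recruits PI3-kinase. CD2 binds CD48 in mice and strengthens contact with the partner cell. CD226 and CD96 bind the nectin-like protein CD155, which the gene Pvr encodes, and share it with the inhibitory receptor TIGIT, while CRTAM binds the nectin-like protein CADM1. CD7 is an immunoglobulin-family protein of T and NK cells, and CD37 is a tetraspanin, a membrane organiser abundant on lymphocytes.

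Reads recovered from the table numbered 14746864 to 20140111 per library in the KO-labelled group and 18226879 to 22931296 in the WT-labelled group. Csnk2a1, the targeted gene, had 2828, 2875 and 2786 normalized counts in the KO-labelled libraries, against 1665, 1847 and 1645 in the WT-labelled libraries. This value over the whole gene goes against the label and does not check a deletion of single exons, so all directions below are those of the libraries as labelled. The libraries expressed the genes of CD8+ T cells: Cd8a, Cd8b1, Cd3d, Cd3g, Cd247 and Trac summed to 80930 to 86970 normalized counts in KO-labelled and 84740 to 92940 in WT-labelled libraries, while Cd4 reached at most 19.8 in KO-labelled and 20.9 in WT-labelled libraries. WT replicate 2 stood apart, with a chi-square per degree of freedom of 19.1 and 18.5 against WT replicates 1 and 3, which differed from each other by 5.32. Against KO replicates 1, 2 and 3 its values were lower, at 15.8, 12.9 and 14.6, so by this measure it lay nearer the KO-labelled libraries. KO replicates 2 and 3 stood apart in B cell transcripts: 11 B cell markers summed to 435, 2491 and 2294 normalized counts in KO replicates 1, 2 and 3, against 551, 483 and 483 in WT replicates 1, 2 and 3. None of the 11 was at 0 in any library, and none passed the test. In bulk RNA, fewer cells of a type and less RNA per cell cannot be told apart.

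Of the 8 co-receptors, Icos and Cd96 were lower in the KO-labelled libraries, each by about 22%, and none was higher (limma on log2 of the normalized count plus 1, Benjamini-Hochberg adjusted p below 0.05 over all genes tested). Of all 13654 genes tested, 5.19% were called, 3.15% lower and 2.04% higher, against which the 2 of 8 are to be read. The median log2 fold change was 0.04 over the 8 and 0.0061 over all genes tested, with 4 of the 8 negative and 4 positive. The KO-labelled and WT-labelled libraries did not overlap for 4 of the 8 (Icos, Cd2 and Cd96 lower, Cd226 higher). Of all tested genes, 25.7% had groups that did not overlap, 13.8% with the KO-labelled libraries lower and 12.0% with them higher. The other 6 members had differences of at most 0.27 on the log2 scale in either direction.

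**Figure D1:**
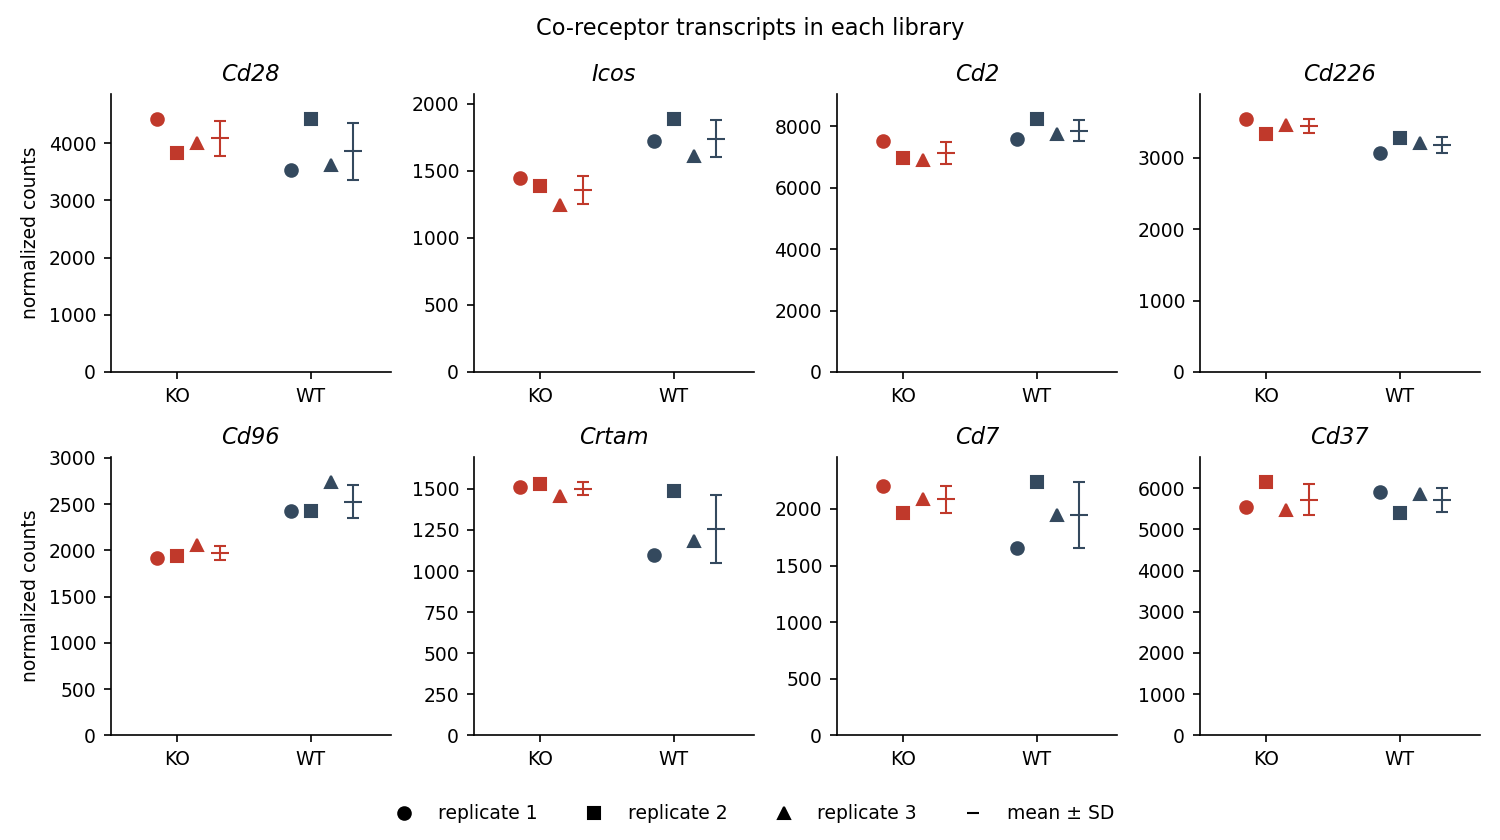
Normalized counts (vertical axes, starting at 0) of the 8 co-receptors in each KO-labelled (red) and WT-labelled (dark blue) library, with symbols for the replicates and the group mean ± SD (n = 3) beside them. Icos and Cd96 lie lower in all 3 KO-labelled libraries than in any WT-labelled one, while WT replicate 2 lies among or above the KO-labelled libraries for Cd28, Crtam and Cd7.

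Icos measured 1449, 1384 and 1244 normalized counts in KO replicates 1, 2 and 3, against 1720, 1889 and 1614 in WT replicates 1, 2 and 3. The highest KO-labelled library lay under the lowest WT-labelled one. The means were 1359 ± 105 in KO-labelled and 1741 ± 139 in WT-labelled libraries (SD, n = 3 each), 21.9% lower, a log2 fold change of -0.36 (SE 0.09, limma, adjusted p = 0.0416). The call is close to the threshold. It held without WT replicate 2 (adjusted p = 0.0341) but not without KO replicate 1 (0.0562), 2 (0.103) or 3 (0.173) or WT replicate 1 (0.0982) or 3 (0.0748), with log2 fold changes from -0.41 to -0.29.

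Cd28, by contrast with Icos, measured 4421, 3835 and 3999 normalized counts in the KO-labelled libraries and 3531, 4424 and 3612 in the WT-labelled ones. Its groups overlapped, with WT replicate 2 the highest of the 6 libraries. The log2 fold change was 0.09 (95% interval -0.13 to 0.30, limma, adjusted p = 0.65) and, with 1 library left out, ranged from 0.03 without WT replicate 1 (adjusted p = 0.927) to 0.19 without WT replicate 2 (0.12). Both genes lie on the plus strand of chromosome 1 (GRCm38), Cd28 at 60716800 to 60773359 and Icos at 60977927 to 61000320. Ctla4, which encodes the inhibitory receptor that shares CD80 and CD86 with CD28, lies between them at 60887000 to 60915832. It measured only 71.4, 50.4 and 67.5 normalized counts in the KO-labelled libraries, against 87.9, 164 and 75.4 in the WT-labelled ones, and did not pass (log2 fold change -0.71, limma, adjusted p = 0.177).

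Cd96, on the minus strand of chromosome 16 at 46035657 to 46120251, encodes a receptor for CD155. It measured 1915, 1935 and 2056 normalized counts in the KO-labelled libraries, against 2425, 2424 and 2739 in the WT-labelled libraries. All 3 KO-labelled libraries were lower than every WT-labelled one, and WT replicate 3 was the highest. The means were 1968 ± 76.7 in KO-labelled and 2529 ± 182 in WT-labelled libraries (SD, n = 3 each), 22.1% lower, a log2 fold change of -0.36 (SE 0.07, limma, adjusted p = 0.0222). The call held without WT replicate 1 (adjusted p = 0.0479) or 2 (0.00602) and was lost without KO replicate 1 (0.0688), 2 (0.0779) or 3 (0.0735) or WT replicate 3 (0.12), with log2 fold changes from -0.39 to -0.30.

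Cd226, the activating receptor for the same ligand, measured 3539, 3335 and 3458 normalized counts in the KO-labelled libraries and 3064, 3277 and 3208 in the WT-labelled libraries. The groups did not overlap, but the gap between KO replicate 2 and WT replicate 2 was narrow and the gene was not called. Its log2 fold change was 0.11, with a 95% interval of -0.03 to 0.26 (limma, adjusted p = 0.353). Cd226 lies on the plus strand of chromosome 18 at 89176967 to 89272229.

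Crtam, on the minus strand of chromosome 9 at 40969691 to 41004628, encodes a receptor of activated CD8+ T cells and NK cells. Its level was 1514, 1533 and 1455 normalized counts in the KO-labelled libraries and 1097, 1490 and 1181 in the WT-labelled libraries. WT replicates 1 and 3 lay below all KO-labelled libraries and WT replicate 2 lay among them. The log2 fold change was 0.27 (SE 0.11, 95% interval 0.03 to 0.50) and did not pass after adjustment (limma, adjusted p = 0.178). Without WT replicate 2 it passed (log2 fold change 0.40, adjusted p = 0.00439), when 14.9% of all tested genes were called, 7.68% higher and 7.21% lower. Icos, Cd96 and Crtam were then the 3 members called.

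**Figure D2:**
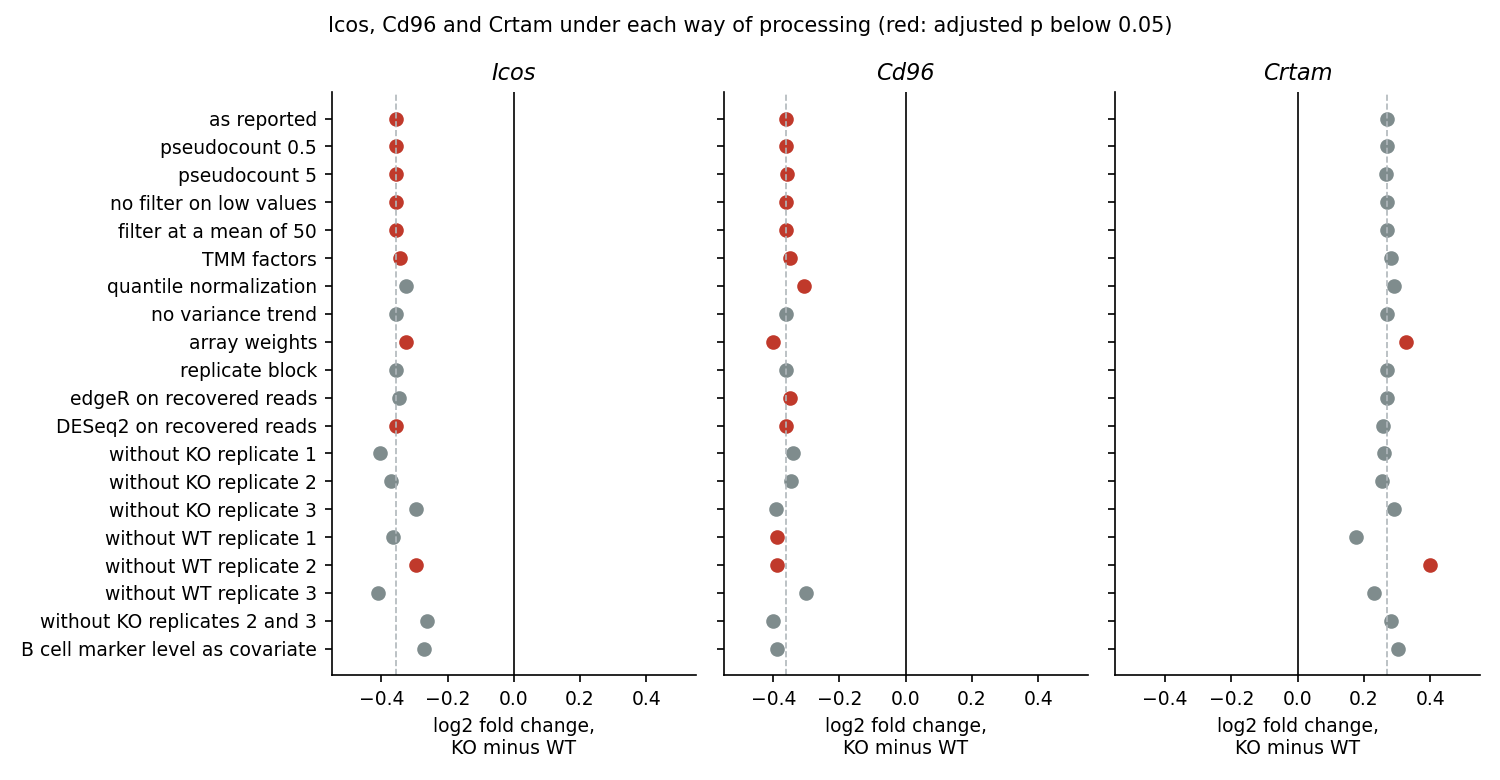
Log2 fold change, KO-labelled minus WT-labelled libraries (horizontal axes), of Icos, Cd96 and Crtam as reported (top row, dashed line) and under each of 19 other ways of processing or subsets of libraries. Red points passed an adjusted p of 0.05, Icos in 8 and Cd96 in 11 of the 19, and values ranged from -0.41 to -0.26 for Icos, -0.40 to -0.30 for Cd96 and 0.18 to 0.40 for Crtam.

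**Figure D3:**
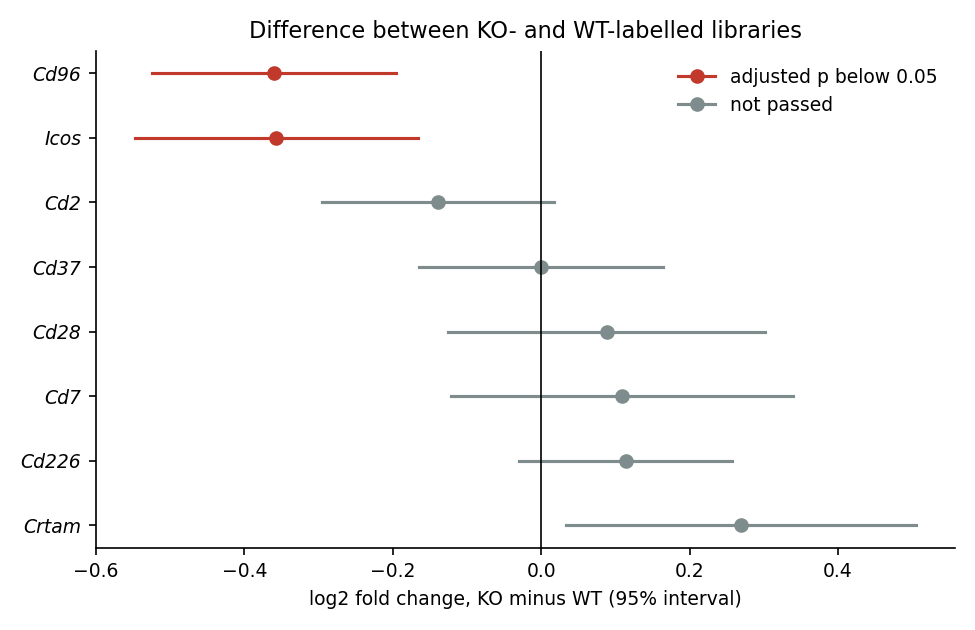
Log2 fold change, KO-labelled minus WT-labelled libraries (horizontal axis), of each of the 8 co-receptors, with its 95% interval from the limma fit across all genes (n = 3 libraries per group). Cd96 and Icos (red, adjusted p below 0.05) lie at -0.36, and the interval of Crtam lies above 0 without passing the adjustment.

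Cd2, the adhesion receptor gene on the minus strand of chromosome 3 at 101275899 to 101287939, encodes a receptor found on nearly all T cells. It had 7526, 6959 and 6898 normalized counts in the KO-labelled libraries and 7573, 8239 and 7735 in the WT-labelled libraries. The groups did not overlap, with KO replicate 1 just under WT replicate 1. Its log2 fold change was -0.14 (95% interval -0.30 to 0.02, limma, adjusted p = 0.288).

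Cd7 lies on the minus strand of chromosome 11 at 121036747 to 121039418. Its level was 2200, 1962 and 2092 normalized counts in the KO-labelled libraries and 1657, 2237 and 1943 in the WT-labelled libraries. The WT-labelled libraries spanned the whole KO-labelled range (log2 fold change 0.11, 95% interval -0.12 to 0.34, limma, adjusted p = 0.598). With 1 library left out it ranged from -0.0015 without WT replicate 1 (adjusted p = 0.996), where the sign turned, to 0.22 without WT replicate 2 (0.118). Its exons overlap those of the antisense gene Gm11775 by 122 bases, and as the use of strand is not given in the sources used here, reads of the pair cannot be told apart.

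Cd37 lies on the minus strand of chromosome 7 at 45233632 to 45239115. Its level was 5542, 6148 and 5468 normalized counts in the KO-labelled libraries and 5912, 5392 and 5848 in the WT-labelled libraries. KO replicate 2, the library with the highest sum of B cell markers (2491), was the highest. KO replicate 3, with a sum of 2294, was lower than KO replicate 1, with a sum of 435. B cells also express Cd37, and their part in its level was not tested. The means were 5719 ± 373 in KO-labelled and 5717 ± 284 in WT-labelled libraries (SD, n = 3 each), and the log2 fold change of -0.0002 had a 95% interval of -0.16 to 0.16 (limma, adjusted p = 0.9995). Its sign turned with TMM factors (0.0118) and after quantile normalization (0.0727). Its exons overlap those of Tead2 on the opposite strand by 13 bases.

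The members' differences were also read in the KO-labelled library without a raised sum of B cell markers. In KO replicate 1 the summed B cell markers lay below the WT-labelled range, although Ebf1 alone, at 47.3, lay above its highest WT-labelled value of 42.6. Relative to the WT-labelled mean, Icos was -0.26, Cd96 -0.40 and Crtam 0.28 on the log2 scale in that library. The same genes were at -0.33, -0.38 and 0.30 in KO replicate 2 and -0.48, -0.30 and 0.23 in KO replicate 3. With the mean log2 level of the 11 B cell markers as a covariate, the log2 fold change was -0.39 for Cd96 (limma, adjusted p = 0.0954) and -0.27 for Icos (adjusted p = 0.229). Neither was called in that fit, in which 1.14% of all tested genes were. Summed marker levels of other cells that carry these receptors overlapped between the groups, although some single markers did not. For NK cells, 4 measured markers summed to 892 to 1093 normalized counts in KO-labelled and 481 to 1205 in WT-labelled libraries, Ncr1 was not among the genes listed, and no marker passed. For platelets, which carry CD226, Pf4 and Itga2b summed to 18.5 to 60.5 in KO-labelled and 42.6 to 78.8 in WT-labelled libraries. Itga2b alone had 12.1 to 27.7 in KO-labelled and 29.8 to 48.6 in WT-labelled libraries and did not pass (limma, adjusted p = 0.131). Of the other marker lists, 4 plasma cell genes summed to 897 to 1303 in KO-labelled and 875 to 982 in WT-labelled libraries with Jchain called higher, and 6 macrophage and monocyte genes to 1509 to 1708 in KO-labelled and 1251 to 1529 in WT-labelled libraries with Cd68 called higher. For CD4 T cells, which also express Icos, 3 measured markers summed to 315 to 354 in KO-labelled and 345 to 358 in WT-labelled libraries. Of these markers, Cd40lg was called lower and Cxcr5 higher, neither overlapping between the groups, so they offset each other in the sum. Cd4 itself had 13.9 to 19.8 normalized counts in KO-labelled and 11.9 to 20.9 in WT-labelled libraries. The part of these cells in the differences was not tested.

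Ratios within a library do not depend on its scaling factor, and 4 were compared between receptors that share a ligand or a signalling route. For Icos over Cd28 the ratio of normalized counts was 0.328, 0.361 and 0.311 in the KO-labelled libraries, against 0.487, 0.427 and 0.447 in the WT-labelled ones (log2 difference -0.45). For Cd226 over Cd96 it was 1.85, 1.72 and 1.68 in the KO-labelled libraries, against 1.26, 1.35 and 1.17 in the WT-labelled ones (log2 difference 0.47). In both, the 3 libraries of one label lay apart from the 3 of the other. Cd28 over Ctla4 was 62.0, 76.1 and 59.3 in the KO-labelled libraries, against 40.2, 27.0 and 47.9 in the WT-labelled ones (log2 difference 0.80), also with no overlap. Each of these 3 had an exact two-sided permutation p of 0.1, the smallest that 3 against 3 allows, and 0.133 after adjustment over the 4 ratios, so none could pass. Cd226 over Tigit was 7.92, 9.12 and 8.96 in the KO-labelled libraries and 8.62, 3.97 and 7.04 in the WT-labelled ones, and these overlapped (exact permutation p = 0.2, adjusted 0.2).

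**Figure D4:**
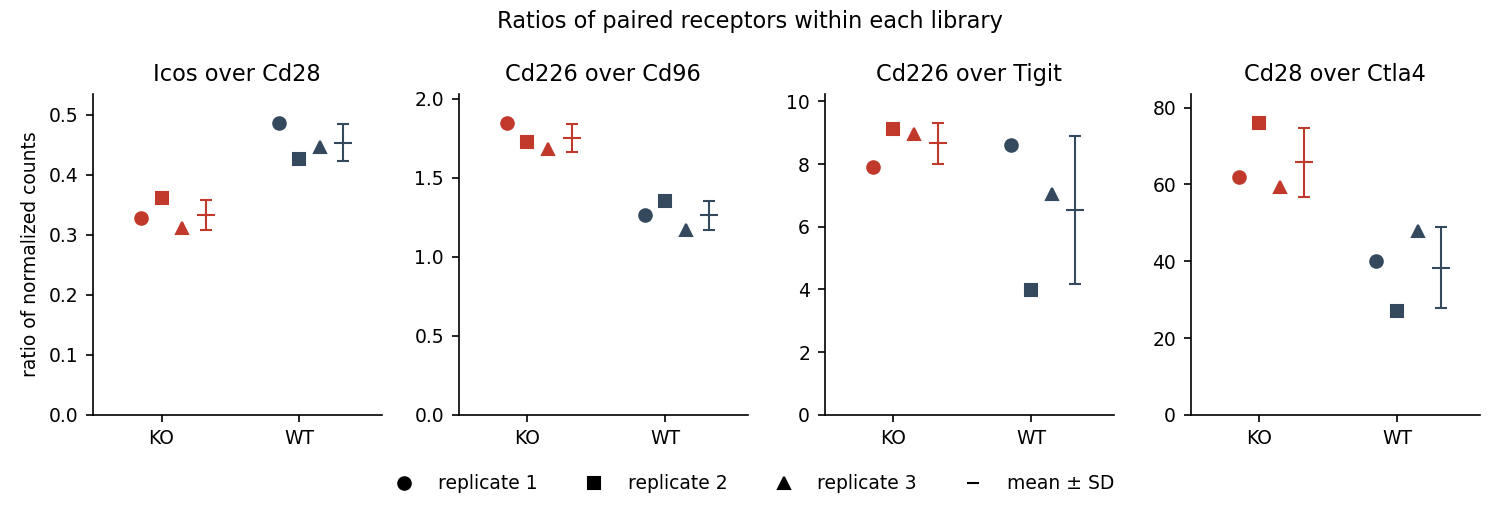
Ratio of the normalized counts of 2 genes in the same library (vertical axes, starting at 0) for the KO-labelled (red) and WT-labelled (dark blue) libraries, with the group mean ± SD (n = 3). Icos over Cd28 lies lower, and Cd226 over Cd96 and Cd28 over Ctla4 higher, in all KO-labelled libraries, while Cd226 over Tigit overlaps because WT replicate 1, at 8.62, lies among the KO-labelled values.

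All 8 were well expressed, from the 77.0th percentile of all listed genes by mean level for Crtam to the 96.9th for Cd2. Divided by the length of their merged exons, the order of levels was the same in both groups. Cd2 came first with 4094 ± 199 normalized counts per kilobase in KO-labelled and 4508 ± 200 in WT-labelled libraries (SD, n = 3 each). Cd7 followed, at 1840 ± 105 in KO-labelled and 1717 ± 256 in WT-labelled libraries. Cd37 was at 1624 ± 106 in KO-labelled and 1623 ± 80.5 in WT-labelled libraries, and its range overlapped that of Cd7 in both groups. Cd96 was next, with 901 ± 35.1 in KO-labelled and 1158 ± 83.3 in WT-labelled libraries. Cd226, at 704 ± 21.0 in KO-labelled and 651 ± 22.2 in WT-labelled libraries, and Cd28, at 667 ± 49.4 in KO-labelled and 630 ± 80.6 in WT-labelled libraries, overlapped within each group. Icos followed at 396 ± 30.6 in KO-labelled and 508 ± 40.4 in WT-labelled libraries, and Crtam was last at 292 ± 7.89 in KO-labelled and 245 ± 40.4 in WT-labelled libraries. With the length of the principal transcript in place of merged exons, Cd37 stood at 4661 in KO-labelled and 4659 in WT-labelled libraries, above Cd7, and Cd28 at 940 in KO-labelled and 887 in WT-labelled libraries. Cd28 then lay above Cd226 in both groups, and its KO-labelled mean lay above that of Cd96 (901). By library, Cd28 was above Cd96 only in KO replicate 1 (1017 against 877). It was below Cd96 in KO replicates 2 (882 against 886) and 3 (920 against 942).

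The genes around these receptors were taken from 7 lists of their family members, ligands, adaptors and regulators, chosen from general knowledge with earlier results of these data known. Of the 60 tested, 4 were higher and 2 lower in the KO-labelled libraries, 10% in all, beside 5.19% of all tested genes (2.04% higher and 3.15% lower). None of the 8 tested genes of the B7 and CD28 family was called. Vsir, which encodes the inhibitory B7-family protein VISTA, came closest, with 6911, 7538 and 6524 normalized counts in KO-labelled and 8597, 7851 and 9534 in WT-labelled libraries (log2 fold change -0.31, limma, adjusted p = 0.0779). Cd86 (0.54, adjusted p = 0.0799) and Btla, an inhibitory receptor of the family (0.40, adjusted p = 0.139), had positive values. Cd80, the other CD28 ligand gene, had a negative value (-0.40, limma, adjusted p = 0.288). It measured 69.5, 47.9 and 68.4 normalized counts in KO-labelled and 84.8, 82.3 and 75.4 in WT-labelled libraries. WT replicate 2 lay nearer the KO-labelled libraries than the other WT-labelled ones did for Cd86, at 281 normalized counts, against 299 to 365 in KO-labelled libraries and 188 and 209 in WT replicates 1 and 3. Without it, when 14.9% of all tested genes were called, 4 of the 8 family genes passed: Vsir (adjusted p = 0.0105), Cd86 (0.00346), Btla (0.00277) and Pdcd1 (0.000984). Pdcd1, which encodes the inhibitory receptor PD-1, measured 314, 336 and 317 normalized counts in KO-labelled and 139, 441 and 191 in WT-labelled libraries. WT replicate 2 was thus its highest library, and with all libraries it did not pass (adjusted p = 0.418).

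Among the nectin and nectin-like partners of CD226, CD96 and CRTAM, 1 of 6 was lower and none higher, beside 3.15% lower and 2.04% higher of all tested genes. Pvrig, which encodes a receptor of the same nectin group, had only 7.41, 8.82 and 10.9 normalized counts in KO-labelled libraries, against 31.7, 22.8 and 28.5 in WT-labelled libraries (log2 fold change -1.51, SE 0.33, adjusted p = 0.0285). It passed in 1 of the 6 runs that left out a library, that without WT replicate 2 (adjusted p = 0.0185), and reached 0.136 without WT replicate 3. Tigit measured 447, 366 and 386 normalized counts in KO-labelled and 356, 825 and 456 in WT-labelled libraries and did not pass (adjusted p = 0.441). Nor did the low-level ligand genes Nectin1 (log2 fold change 0.87, adjusted p = 0.523) and Nectin2 (-0.20, adjusted p = 0.776). Ligand genes, given whatever their p, a choice made after their values were seen, were measured in the sorted cells as well. Pvr, which encodes CD155, had 823 to 861 normalized counts in KO-labelled and 752 to 930 in WT-labelled libraries. Cadm1 had 13.9 to 18.9 in KO-labelled and 7.54 to 34.8 in WT-labelled libraries, and Icosl 159 to 299 in KO-labelled and 227 to 369 in WT-labelled libraries. Cd48, which encodes the CD2 ligand, had 5273 to 6558 in KO-labelled and 6134 to 6832 in WT-labelled libraries.

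Of 9 genes of the CD2 ligand and adaptors, 1 was higher and none lower, beside 2.04% higher and 3.15% lower of all tested genes. Cd2ap, which encodes an adaptor that binds the CD2 tail and links it to actin, measured 692, 597 and 678 normalized counts in KO-labelled libraries, against 475, 480 and 412 in WT-labelled libraries. This was 1.44-fold higher (log2 fold change 0.52, SE 0.10, limma, adjusted p = 0.0147), and the call was lost without KO replicate 1 (adjusted p = 0.0576) or 3 (0.0867) or WT replicate 3 (0.0753). Cd3e (log2 fold change -0.22, adjusted p = 0.091), Fyn, a Src-family kinase gene (-0.21, adjusted p = 0.127), and Wasf2, an actin regulator gene (-0.20, adjusted p = 0.173), did not pass. None of 18 signalling genes downstream of CD28 and ICOS was called. Of the 18, 14 (77.8%) had negative log2 fold changes with a median of -0.14, beside 48.7% and 0.0061 over all tested genes. After quantile normalization 11 were negative and the median was -0.06. Malt1, a protease of the NF-kappaB route, was closest (-0.29, adjusted p = 0.0647), and Carmil2, which links CD28 to actin and NF-kappaB, had a positive value (0.21, adjusted p = 0.105). Prkcq, a kinase gene of the same route, was at -0.21 (adjusted p = 0.113), and quantile normalization brought Malt1 to -0.21 and Prkcq to -0.12. Malt1 passed without WT replicate 2 (adjusted p = 0.0132). None of 4 RNA-binding regulators was called. Rc3h1, which encodes Roquin-1, a repressor of the Icos transcript, measured 2099, 2003 and 2000 normalized counts in KO-labelled and 2189, 2001 and 2283 in WT-labelled libraries, and these overlapped (log2 fold change -0.08, adjusted p = 0.555). Zc3h12a, which encodes Regnase-1, an RNase that degrades the Icos transcript among others, was at 0.14 (adjusted p = 0.553), and the related Zc3h12d was at 0.09 (adjusted p = 0.611).

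Of 15 tetraspanin genes other than Cd37, 3 were higher and 1 was lower, 26.7% in all. Of all tested genes, 5.19% were called, 2.04% higher and 3.15% lower. Cd81 measured 181, 222 and 222 normalized counts in KO-labelled libraries, against 109, 85.3 and 89.7 in WT-labelled libraries (2.19-fold higher, log2 fold change 1.13, SE 0.15, limma, adjusted p = 0.00387). Cd9 measured 752, 688 and 727 in KO-labelled libraries, against 431, 420 and 325 in WT-labelled libraries (1.85-fold higher, adjusted p = 0.00278). Both passed in all 6 runs that left out a library. B cells also express both. In KO replicate 1 the summed B cell markers were not raised. Its log2 fold changes against the WT-labelled mean were 0.93 for Cd81 and 0.95 for Cd9. With the B cell covariate Cd9 passed (adjusted p = 0.0382) and Cd81 did not (0.0604). The part of B cells in either difference was not tested. Tspan31 was 1.43-fold higher (adjusted p = 0.0124), a call lost without KO replicate 2 (0.0543) or 3 (0.0734) or WT replicate 3 (0.0635). Tspan5, which helps the protease ADAM10 reach the cell surface, was 1.38-fold lower (adjusted p = 0.00811), a call lost without WT replicate 3 (0.0501). Tspan3 (log2 fold change 0.45, adjusted p = 0.0647) did not pass, although it did without WT replicate 2 (0.0114). Tspan32 (0.36, adjusted p = 0.0975) and Tspan17 (0.66, adjusted p = 0.185) did not pass either. Of the CD7 ligand list, Sectm1a and Sectm1b, neither was among the genes analysed here.

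**Figure D5:**
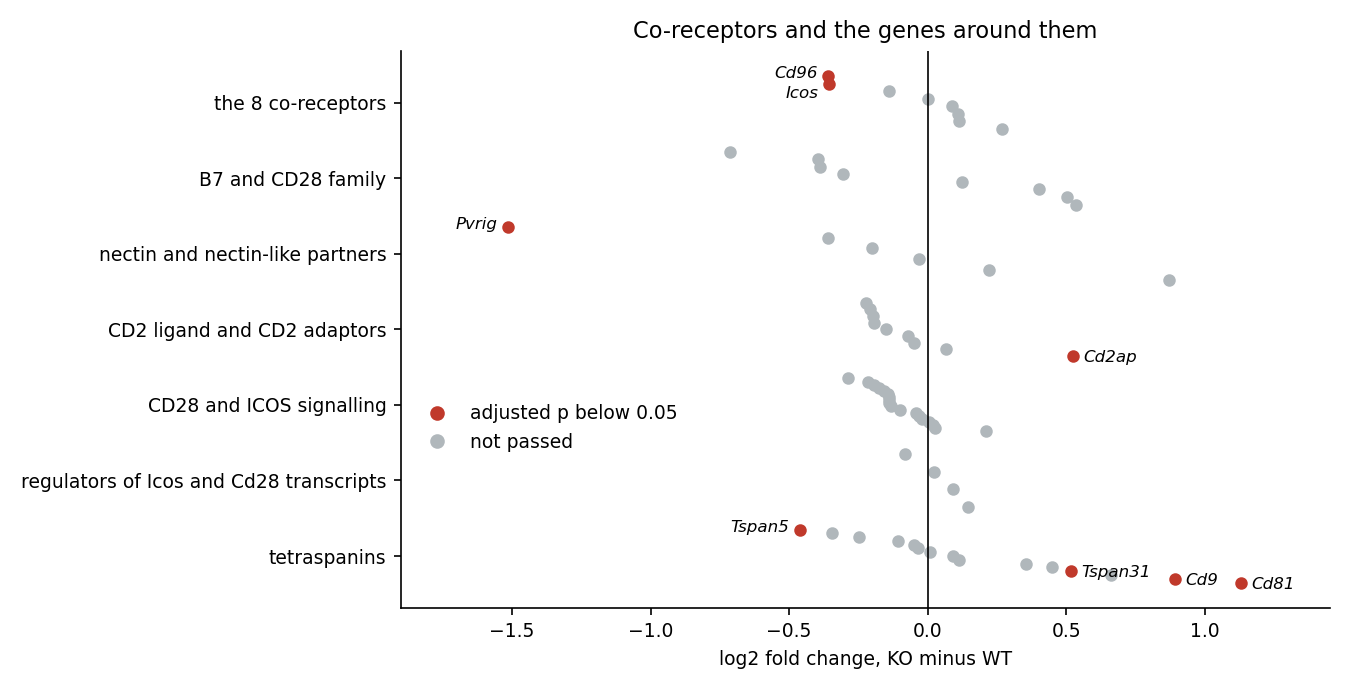
Log2 fold change, KO-labelled minus WT-labelled libraries (horizontal axis), of the 8 co-receptors and of the tested genes of each list around them (1 point per gene, n = 3 libraries per group; points are spread vertically only to separate them). Red points passed the adjusted threshold: Cd96, Icos, Pvrig and Tspan5 lie to the left of 0, and Cd2ap, Tspan31, Cd9 and Cd81 to the right.

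The genes whose profile over the 6 libraries was nearest to that of each called member were found by the root mean square difference of centred log2 values, among the 10514 tested genes whose mean reached 50 normalized counts. Nearest to Cd96 were Riox2 (0.0274), Svil (0.0326) and Galnt6 (0.0387). Galnt6, a glycosyltransferase gene, measured 3052, 3171 and 3203 normalized counts in KO-labelled libraries, against 3971, 3715 and 4229 in WT-labelled libraries. Nearest to Icos were Dnah8 (0.0511), Cst7 (0.054) and Klhl42 (0.0582). Klhl42 was itself not called (log2 fold change -0.25, limma, adjusted p = 0.15). Cst7, which encodes the protease inhibitor cystatin F, measured 2054, 2008 and 1744 normalized counts in KO-labelled libraries, against 2450, 2716 and 2534 in WT-labelled libraries. The Cd96 profile is highest in WT replicate 3 while the Icos profile is highest in WT replicate 2.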

How the data were processed

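RNA sequencing of 6 libraries of sorted mouse splenic CD8+ T cells was analysed, 3 KO-labelled and 3 WT-labelled. The submitters' processing notes name the mm10 build. No source used here gives the aligner, the counter, the annotation or whether strand was used. The deposited table holds a signal per gene, named normalized counts: from the values, the authors divided each library's counts by 1 factor. Every value was a whole multiple of its column's step (100% of values whole within 0.01, against 1.43% to 1.76% before division), so whole reads were recovered. For WT replicate 2 and KO replicate 3 the step lies near 1, and the same division was used. Gene IDs were matched to GENCODE M21 on GRCm38 (13648 of 13675). No pair of libraries was close enough to be 1 library deposited repeatedly (lowest chi-square per degree of freedom 5.32).

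The KO minus WT contrast came from limma 3.58.1 (R 4.3.3, two-sided, with a variance trend) on log2 of the value plus 1, for the 13654 genes with a mean of at least 10. This log scale shrinks the fold changes of low genes. Adjusted p-values are Benjamini-Hochberg over all of these, and each adjusted p in the text is from this fit unless another is named. As alternatives on the recovered reads, edgeR 4.0.16 (quasi-likelihood) called 645 genes and DESeq2 1.42.0 called 1006, against 708. Other alternatives were pseudocounts, filters, scalings, array weights, leaving out the variance trend, a B cell covariate, a replicate block and leaving out libraries. In simulated counts with these depths (5 runs of 13675 genes), the limma step called 50.1% of genes changed 1.5-fold, 68.4% changed 2-fold and 90.3% changed 4-fold, and 0.0846% of unchanged genes.

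The 8 members, the lists and the left-out libraries were chosen with earlier results of these data known. All 8 members are named, and of each list the called genes and up to 3 more with the smallest p, besides ligand genes, Ctla4 and Pdcd1, which were added after their values were seen.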

Additional observations from a re-analysis of the deposited data

How the results depend on the processing

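Cd28, Icos, Cd2, Cd226, Cd96 and Crtam kept their direction under all 19 alternatives, whereas Cd37 and Cd7 did not. Cd37, at -0.0002 on the log2 scale, was 0.0118 with TMM factors, 0.0727 after quantile normalization and 0.0121 with edgeR, and ranged from -0.0533 to 0.0312 with 1 library left out. Cd7 ranged from -0.0015 to 0.22 with 1 library left out. Cd96 passed in 11 of the 19 (adjusted p from 0.00139 to 0.241) and Icos in 8 (0.00794 to 0.385). Crtam passed in 2, with array weights (adjusted p = 0.0151) and without WT replicate 2. The cause of the lost calls was not tested.

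The 2 calls among the 8 became 1 after quantile normalization (Icos 0.0568) and 1 with edgeR (Icos 0.0501). They became 0 without a variance trend, with the replicate block, with the B cell covariate and without KO replicates 2 and 3 together, with 2, 3, 2 and 1 members at an unadjusted p below 0.05 by limma. With 1 library left out they ranged from 0 to 3. Of all genes, 708 were called, against 141 without a variance trend, 2676 with array weights, 155 with the B cell covariate and 0 without KO replicates 2 and 3 (limma, 1861 at an unadjusted p below 0.05), a run that assumes that the lone KO library varies like the WT-labelled ones. With 1 library left out the count ranged from 200 to 2028, the highest without WT replicate 2. On the lists around the receptors, 6 genes were called, against 3 without a variance trend, 20 with array weights, 12 with DESeq2, 1 with the B cell covariate and 0 without KO replicates 2 and 3 (limma, 15 at an unadjusted p below 0.05), and from 2 to 12 with 1 library left out. The 4 ratios kept their sign in each run: Icos to Cd28 from -0.50 to -0.39, Cd226 to Cd96 from 0.42 to 0.52, Cd226 to Tigit from 0.15 to 0.71 and Cd28 to Ctla4 from 0.57 to 0.98.

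The labels link same-numbered libraries only by that number and do not say whether they were paired. Correlations of their deviations from the group means were -0.54, -0.27 and -0.24. These cannot decide on pairing, because centring on 3 libraries per group ties the deviations to each other. With the replicate block 197 genes were called, 2 on the lists and 0 of the 8 members (Cd96 adjusted p = 0.0778, Icos 0.0948). Icos and Cd96 differed by 1.28-fold, less than the 1.5-fold change at which the simulation called 50.1% of genes. That share is over genes of all levels and spreads, so it does not say how readily Icos or Cd96 would be called.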
